A study of Mus musculus with 6 samples.

Results

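The cathepsins are the proteases of the endosome and lysosome, and the set described here comprises 9 of them, Ctse, Ctsb, Ctsd, Ctsl, Ctss, Ctsh, Ctsz, Ctsc and Ctsk. They were taken as every probe set that the platform annotation assigns to 1 of these symbols alone, which gave 16 of the 12488 probe sets on the array and 9 of its 8251 genes. The samples were whole livers of 6 mouse fetuses of embryonic day 12.5, namely 3 Rb null embryos and 3 wild type embryos, all untreated and all from crosses of Rb heterozygous 129sv mice. Each liver was disaggregated in saline and read on its own Affymetrix array, so n = 3 embryos per genotype throughout. The form of the Rb null allele, the sex of the embryos and the litters are not given in the sources used here. The set was put together with the difference between the genotypes already known, above all that of Ctse. The members' differences are therefore given as a description, without p-values, and are not support for anything.

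Cathepsins are made as inactive precursors, sorted to acidic vesicles and activated there by cleavage. Ctsb, Ctsl, Ctss, Ctsh, Ctsz, Ctsc and Ctsk encode papain-like cysteine proteases, whereas Ctsd and Ctse encode aspartic proteases related to pepsin. Ctsd is a lysosomal enzyme of nearly every cell. Ctse is restricted to few cell types, among them gastric epithelium, some immune cells and red cells, and lies largely outside the lysosome. In the fetal liver, lysosomal proteases are prominent in macrophages, which take up the nuclei expelled by erythroblasts.

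Values are MAS5 signals, a linear brightness in arbitrary units, given per embryo or as mean ± SD. Log2 differences (Rb null minus wild type, with their SE) refer to log2(signal + 50.02), and this offset understates the change of dim probe sets. Signals of different probe sets were not compared as levels of expression, because brightness depends on the probes. They were used to pick the brightest probe set of a gene and to sum marker lists, and such sums are weighted towards bright probe sets. Probe sets with a mean signal above 150.1 over all arrays were tested with limma. The arrays were scaled alike (trimmed means of 500.22 to 500.25), with array medians of 197 to 203 in Rb null livers and 176 to 186 in wild type livers. Rb1 read 136 ± 7.52 in Rb null livers and 750.1 ± 42.3 in wild type livers on its brighter probe set, although whether its probes lie in the deleted part could not be looked up here. Of the hepatoblast and of the erythroid marker list, all 12 genes on the array were above the signal filter, so the labelled tissue was represented.

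Of the 16 cathepsin probe sets, 11 passed the filter and 5 did not, and these 11 stood for 8 of the 9 genes. With each gene represented by its brightest probe set, 4 genes (Ctse, Ctsl, Ctss and Ctsh) passed the limma threshold (Benjamini-Hochberg adjusted p below 0.05 over all tested probe sets) on the higher side in Rb null livers, against 13.1% of all 5273 tested genes. One gene, Ctsb, passed on the lower side, against 9.50% of all genes. Ctsd, Ctsz and Ctsc did not pass, and Ctsk stayed below the filter. The median log2 difference of the 8 genes was 0.25, beside 0.02 over all tested genes. The values of the genotypes did not overlap for 7 of the 11 tested cathepsin probe sets, and 40.0% of all tested probe sets showed this. Since the set was chosen on this contrast, nothing is read from these counts.

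The aspartic protease gene Ctse had 3 probe sets on the array. Probe set 104696_at read 3786, 3720.0 and 3778 in the Rb null livers. In the wild type livers it read 535, 494 and 528. The genotypes were far apart on it, and the lowest Rb null liver lay well above the highest wild type liver. Its log2 difference of 2.74 ± 0.06, or 6.70-fold on signals with the offset added, was the highest of the 5273 tested genes. The coefficient of variation was 0.959% among Rb null and 4.22% among wild type livers, beside medians of 7.60% and 7.62% over all tested probe sets.

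The second Ctse probe set, 93861_f_at, ran the other way. It read 446, 555 and 512 in the Rb null livers. It read 979, 1014 and 1003 in the wild type livers, so that every wild type liver was above every Rb null liver. This gave a log2 difference of -0.92 ± 0.08. The third, 93860_i_at, read 412, 340 and 360.3 in Rb null livers. In wild type livers it read 429, 490 and 471, again without overlap but with a narrow gap, and its log2 difference of -0.29 ± 0.09 did not pass the threshold. After median scaling (-0.41), quantile normalization (-0.38) and cyclic loess (-0.37) it passed. The differences of 104696_at and 93861_f_at lay 3.67 log2 units apart. A mean over the 3 probe sets, which mixes these directions, gave a log2 difference of 0.51 for the gene.

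**Figure D1:**
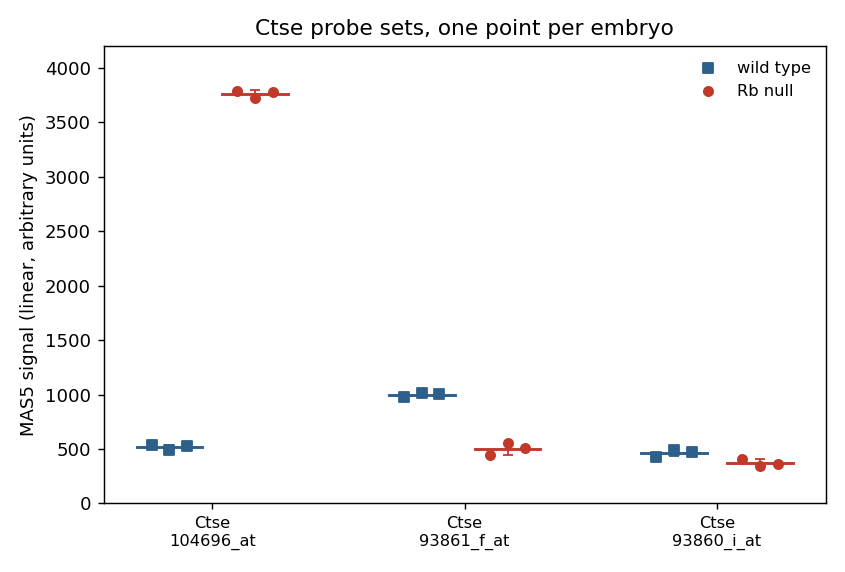
MAS5 signal (linear axis from 0, arbitrary units) of the 3 Ctse probe sets, with 1 point per embryo, lines at the mean and bars of 1 SD. Probe set 104696_at is high in all 3 Rb null livers, while 93861_f_at and 93860_i_at are lower there than in all 3 wild type livers.

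The probe sets differ in what they were designed on. The platform annotation derives the 3 Ctse probe sets from 2 sequence records, 1 for 104696_at and another shared by 93861_f_at and 93860_i_at. From general knowledge, and not from the files analysed here, the shared record is a provirus of the endogenous murine leukaemia family rather than a cathepsin E cDNA. Probe sequences were not analysed here. On this type of array the suffix f marks probes shared by a family of sequences, and the suffix i marks an incomplete set of probes. Whether 93861_f_at and 93860_i_at measure Ctse transcripts was not tested, and only 104696_at is meant by Ctse below. Over the 6 arrays, which share the division into genotypes, log2 values of 93861_f_at and 93860_i_at correlated with r = 0.77, and those of 104696_at correlated with them at -0.98 and -0.86.

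Over the same 6 arrays, the 5 genes whose pattern was most like that of 104696_at were Smim14, Gata6, S100a8, Sox11 and Col6a3, with Pearson r from 0.9990 to 0.9998. The 6 points fall into the 2 genotypes, and 64 probe sets with a single symbol exceeded 0.99. Gata6, a transcription factor of endoderm and mesoderm, read 786 ± 4.50 in Rb null livers and 439 ± 0.265 in wild type livers. S100a8, which encodes a calcium-binding protein of neutrophils, read 3213 ± 27.7 against 2140.3 ± 24.2. The 5 genes most like 93861_f_at were Rpia, 1300017J02Rik, Abhd5, Rb1 and Cs, with r from 0.995 to 0.999, and 18 probe sets exceeded 0.99. Rpia, an enzyme of the pentose phosphate pathway, read 2421 ± 103 in Rb null livers and 3170 ± 15.3 in wild type livers. The 5 most like 93860_i_at were Gm15772, Hnrnpm, Thrap3, Trappc2l and Grina, with r from 0.986 to 0.995.

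Genes next to Ctse on its chromosome were looked at after the Ctse values were known. The nearest tested genes on either side were Rassf5, with 4 protein-coding genes in between, and Nucks1, with 5. Rassf5, a Ras effector, read 189 ± 18.3 against 157 ± 5.69 (log2 difference 0.21 ± 0.11, limma adjusted p = 0.22). Nucks1, a nuclear DNA-binding protein, read 3235 ± 255 against 2832 ± 98.9 (0.19 ± 0.07, limma adjusted p = 0.081). Neither passed the threshold.

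Ctsd, the other aspartic protease, had 1 probe set. It read 3978, 3494 and 3923 in Rb null livers and 3749, 4146 and 2481 in wild type livers. The genotypes overlapped, and wild type embryo 3 was well below the other livers. The log2 difference was 0.16 ± 0.17 with all embryos and -0.06 without wild type embryo 3, so its sign rested on that liver. Without wild type embryo 2 it was 0.31, and it was 0.03 after median scaling, 0.25 after quantile normalization and 0.27 after cyclic loess.

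Among the cysteine cathepsins, Ctsl, an endopeptidase that also processes precursors of other proteins, had the tightest values. It read 1389, 1383 and 1407 in Rb null livers. Wild type livers read 1063, 1046 and 1080, all below the lowest Rb null liver. The log2 difference was 0.38 ± 0.05, or 1.30-fold on signals with the offset added, and 90.2% of the tested genes had a lower one. It passed the threshold in each of the 17 alternative settings, where it ranged from 0.24 to 0.39.

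Ctss, an endopeptidase of antigen-presenting cells that degrades the invariant chain, read 647, 751 and 771 in Rb null livers. It read 606, 520.4 and 558 in wild type livers. The groups did not overlap, but Rb null embryo 1 lay close to wild type embryo 1. The log2 difference was 0.34 ± 0.09. It no longer passed without Rb null embryo 2 (0.31), Rb null embryo 3 (0.29), wild type embryo 2 (0.29) or wild type embryo 3 (0.33).

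Ctsh, an aminopeptidase, read 301, 313 and 336 in Rb null livers and 253, 257 and 215 in wild type livers. All Rb null livers were above all wild type livers. The log2 difference was 0.33 ± 0.10, and leaving out any single embryo ended the call. Without Rb null embryos 1, 2 and 3 it was 0.36, 0.34 and 0.29, and without wild type embryos 1, 2 and 3 it was 0.36, 0.37 and 0.27. For Ctss and Ctsh, median scaling (0.21 and 0.22), quantile normalization (0.28 and 0.22) and cyclic loess (0.28 and 0.23) also ended the call.

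Ctsb, an abundant lysosomal protease with endopeptidase and exopeptidase activity, was the member on the lower side. Its brightest probe set, 94831_at, read 4489, 4808 and 5031 in Rb null livers. It read 5896, 5165 and 6159 in wild type livers. The groups did not overlap, with Rb null embryo 3 and wild type embryo 2 nearest to each other. Ctsb thus had a log2 difference of -0.26 ± 0.08. It no longer passed without Rb null embryo 1 (-0.22), Rb null embryo 2 (-0.27), wild type embryo 1 (-0.24) or wild type embryo 3 (-0.21). After quantile normalization (-0.12) and cyclic loess (-0.11) the difference was smaller by more than 1.5 times and did not pass, whereas after median scaling (-0.40) it was larger by more than 1.5 times and passed.

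The other Ctsb probe sets were dim. Probe set 95608_at ranged between 155 and 240.3 among Rb null livers and between 178 and 279 among wild type livers, overlapping, with a log2 difference of -0.21 ± 0.18. This was -0.08 and -0.33 without Rb null embryos 1 and 2, -0.10 and -0.37 without wild type embryos 2 and 3, and -0.32 after median scaling, quantile normalization and cyclic loess. Probe set 92256_at, below the filter, had means of 144 in Rb null livers and 136 in wild type livers. Probe set 162271_f_at, also below it, had means of 50.6 and 23.0, again with overlap.

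Ctsz, a carboxypeptidase, read 417, 485 and 431 in Rb null livers and 450.4, 349 and 393 in wild type livers. The groups overlapped, and the log2 difference was 0.15 ± 0.11. It was 0.09 without Rb null embryo 2, 0.23 without wild type embryo 1 and 0.07 without wild type embryo 2, and 0.02 after median scaling, 0.06 after quantile normalization and 0.07 after cyclic loess. Ctsc, the dipeptidyl peptidase that activates granule serine proteases of neutrophils and mast cells, read 286, 445 and 412 in Rb null livers on 101019_at. Wild type livers read 398, 342 and 418, so the groups overlapped and the lowest value was that of Rb null embryo 1. The log2 difference was -0.03 ± 0.15, and it turned to 0.14 without Rb null embryo 1 and to 0.02 without wild type embryo 3. In the other leave-one-out settings it lay between -0.14 and -0.01, and it was -0.15 after median scaling, -0.13 after quantile normalization and -0.12 after cyclic loess.

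The remaining probe sets were below the filter. Ctsc read 53.8 ± 18.4 against 88.7 ± 12.2 on 101020_at, without overlap, and 8.67 ± 2.54 against 15.3 ± 17.2 on 161251_f_at, with overlap. Ctsk, the collagen-degrading cathepsin of osteoclasts, read 143, 155 and 175 in Rb null livers and 118, 124 and 137 in wild type livers. The Rb null livers were above the wild type livers by a narrow margin, at a level not shown to be above background.

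**Figure D2:**
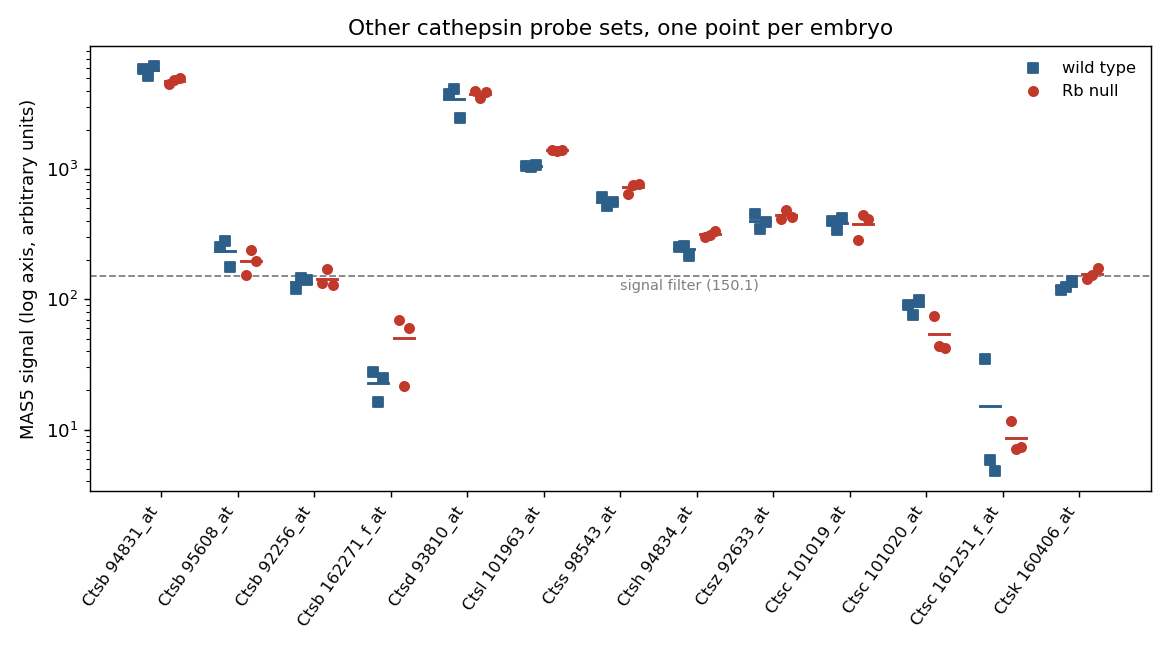
MAS5 signal (log axis, arbitrary units) of the 13 probe sets of the other cathepsins, with 1 point per embryo, lines at the genotype means and a dashed line at the signal filter of 150.1. The genotypes separate for Ctsl, Ctss, Ctsh and Ctsb 94831_at and, below the filter, for Ctsk (higher in Rb null livers) and Ctsc 101020_at (lower), and the low wild type point of Ctsd is embryo 3.

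**Figure D3:**
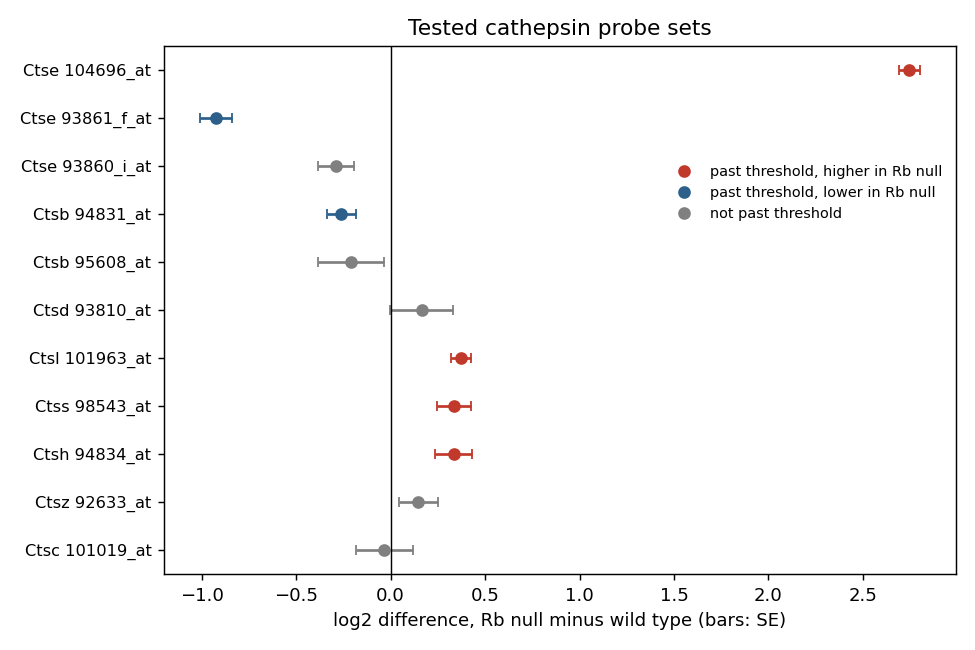
Log2 difference (Rb null minus wild type) with SE of the 11 tested cathepsin probe sets, coloured by whether they passed the limma threshold. Ctse 104696_at stands at 2.74, while the other cathepsin genes lie between -0.26 and 0.38.

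Upstream sequence was taken from a RefSeq table of build GRCm38.p6 with windows from 250 bases before to 50 after a transcript start. It held 6 of the 9 members, Ctsd, Ctsl, Ctss, Ctsz, Ctsc and Ctsk. The upstream window of Ctsl lies inside the annotated gene and is not described further. The letters CACGTG, read alike on both strands, are the core of the site bound by TFEB and related factors that regulate lysosomal genes, and 7.15% of all 32851 windows hold them. Besides Ctsl, only Ctsd of the 6 members did, with copies that begin 245 and 98 bases before the start. GGAAGTG (both strands, 11.0% of windows) was found in Ctss, but not wholly within the 250 bases before the start. AGATAA (both strands, 11.2%) was found in Ctsz, its first base 56 bases before the start. The 250 bases before the starts of Ctsd, which holds CACGTG, and Ctss, which lacks it there, are shown as a pair. They were picked after the calls were known, and whether these letters bear on the differences was not tested. Capitals mark CACGTG. The Ctsd window is chr7:142387828-142388077 on the minus strand and the Ctss window is chr3:95526536-95526785 on the plus strand.
Ctsd: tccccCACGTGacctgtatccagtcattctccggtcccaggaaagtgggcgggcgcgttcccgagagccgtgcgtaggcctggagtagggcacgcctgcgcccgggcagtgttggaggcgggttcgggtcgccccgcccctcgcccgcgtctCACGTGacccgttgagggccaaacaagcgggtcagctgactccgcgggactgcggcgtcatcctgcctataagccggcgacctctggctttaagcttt
Ctss: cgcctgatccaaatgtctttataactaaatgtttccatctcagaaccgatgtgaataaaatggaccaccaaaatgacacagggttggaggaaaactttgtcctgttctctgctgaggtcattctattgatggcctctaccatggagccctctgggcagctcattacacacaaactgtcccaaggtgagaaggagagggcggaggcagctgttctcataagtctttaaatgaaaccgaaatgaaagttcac

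Genes that work with the cathepsins were taken from 8 lists (other cathepsins, other aspartic proteases, cathepsin inhibitors, sorting and activation, lysosomal hydrolases, lysosomal membrane and proton pump, lysosome regulators, and antigen presentation partners). Of their 67 tested genes, 10 rose, 1 fell and 56 did not pass the test, with a median log2 difference of 0.07 beside 0.02 over all genes. The shares of all genes given above, 13.1% and 9.50%, are the background. After median scaling, which moved the median of all genes from 0.02 to -0.10, the counts were 5 higher and 8 lower, so the split between the directions depended on the scaling. Cd63, Hexa and Man2b1 kept their call and direction in every alternative run. Arsa kept them in every alternative in which it was tested, but its wild type mean of 127 lay below the signal filter. It passed the filter through its Rb null mean of 225, so its wild type level was not shown to be above background.

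Of 19 tested lysosomal hydrolase genes, 3 rose, 1 fell and 15 did not pass (median 0.11). Hexa, the alpha subunit of beta-hexosaminidase, read 705, 590 and 606 in Rb null livers and 430.2, 454 and 412 in wild type livers (0.50 ± 0.09, limma adjusted p = 0.0063). Man2b1, lysosomal alpha-mannosidase, read 1064, 1118 and 1154 against 841, 854 and 838 (0.38 ± 0.06, limma adjusted p = 0.0040). On both genes all Rb null livers were above all wild type livers. Arsa, arylsulfatase A, rose by 0.63 ± 0.13 (limma adjusted p = 0.011) from a wild type mean of 127, which lay below the filter. Acp5, the tartrate-resistant acid phosphatase of macrophages and osteoclasts, fell from 1476 ± 126 to 1168 ± 38.4 (-0.32 ± 0.07, limma adjusted p = 0.016). Acp5 did not pass with Rb null embryo 1 (adjusted p = 0.054) or embryo 2 (0.057) left out.

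Of 22 tested genes of the lysosomal membrane and proton pump, 4 rose, none fell and 18 did not pass (median 0.03). Cd63, a tetraspanin of late endosomes and granules, read 1748, 1764 and 1549 in Rb null livers and 1189, 1195 and 1121 in wild type livers, without overlap (0.51 ± 0.07, limma adjusted p = 0.0019). Laptm5, a lysosomal protein of blood cells, rose from 1033 ± 58.3 to 1339 ± 75.0 (0.36 ± 0.07, limma adjusted p = 0.0090), but did not pass after median scaling (0.23, adjusted p = 0.057). Npc1, the lysosomal cholesterol transporter (0.30 ± 0.08), and Atp6v0a1, a subunit of the proton pump (0.28 ± 0.09), also rose. The Npc1 call was lost without any single embryo except Rb null embryo 1, with differences from 0.25 to 0.32 and adjusted p values from 0.070 to 0.12. The Atp6v0a1 call was lost without any except Rb null embryo 3, with differences from 0.25 to 0.32 and adjusted p values from 0.063 to 0.14. Both also did not pass after quantile normalization (adjusted p = 0.10 and 0.15), cyclic loess (0.091 and 0.13), no signal filter (0.063 and 0.080) and median scaling (0.22 and 0.20), which took their differences to 0.17 and 0.16. Lamp1, the major lysosomal membrane glycoprotein, read 5555 ± 376 against 6322 ± 451 and did not pass (-0.18 ± 0.07, limma adjusted p = 0.10).

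Of 5 tested inhibitor genes, 1 rose and 4 did not pass (median 0.11). A2m, a protease-trapping plasma protein, read 335, 351 and 333 against 149, 265 and 211 (0.62 ± 0.16, limma adjusted p = 0.028), and its lowest wild type value was embryo 1. The A2m call was lost without any Rb null embryo (adjusted p = 0.079, 0.089 and 0.059) or wild type embryo 3 (0.064), and after quantile normalization (0.057), cyclic loess (0.057) and no signal filter (0.064). Cstb, the intracellular cystatin that inhibits cysteine cathepsins, read 2696 ± 221 against 2356 ± 96.8 (0.19 ± 0.07, limma adjusted p = 0.088). Of 11 sorting and activation genes, 1 rose and 10 did not pass (median 0.04). Gga2, an adaptor that sorts hydrolase receptors at the Golgi, rose from 1459 ± 88.7 to 1805 ± 64.7 (0.30 ± 0.06, limma adjusted p = 0.013), but did not pass after median scaling (0.17, adjusted p = 0.078) or with Rb null embryo 2 left out (0.28, adjusted p = 0.0501). Ap1g1, a subunit of the clathrin adaptor of the Golgi, did not pass (0.17 ± 0.08, limma adjusted p = 0.17).

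Of 2 other cathepsin genes tested, Ctsa rose and Ctsf did not pass. Ctsa, a serine carboxypeptidase that protects other lysosomal enzymes, read 972, 938 and 999.5 in Rb null livers and 793, 828 and 818 in wild type livers (0.24 ± 0.06, limma adjusted p = 0.025). Ctsa did not pass with Rb null embryo 1 or 3 left out (adjusted p = 0.071 and 0.066), nor with wild type embryo 1 or 3 left out (0.080 and 0.067). It was also lost after median scaling (0.11, adjusted p = 0.26) and quantile normalization (0.20, adjusted p = 0.058). Ctsf, a cysteine protease, read 254 ± 37.9 against 313 ± 58.4 (-0.25 ± 0.15, limma adjusted p = 0.26). Ctsg, a serine protease of neutrophil granules, was below the filter at 54.7 ± 17.9 against 57.4 ± 24.2. None of 5 lysosome regulators passed (median 0.08), and Flcn, a regulator of TFEB localisation, came nearest (0.44 ± 0.14, limma adjusted p = 0.053) while Lamtor2 read 0.11 ± 0.07. Tfeb itself was below the filter at 22.4 ± 4.60 against 41.8 ± 21.5. Psen2 was the tested gene among the other aspartic proteases (-0.03 ± 0.16) and did not pass. Of the antigen presentation partners, 2 of 8 genes were tested and neither passed, Cd74, the invariant chain cleaved by Ctss (0.23 ± 0.13), and H2-Eb1 (0.07 ± 0.13).

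Markers of cell types that could carry cathepsins moved with the genotype in part, and their part in the cathepsin differences was not tested. In whole livers, fewer cells of a type and less RNA per cell cannot be told apart. The background for all cell type counts is the share of all tested genes, 13.1% higher and 9.50% lower. Over the cell type lists together, 25 tested genes were higher and 11 lower, and after median scaling 17 were higher and 13 lower. Calls of single markers were not followed through the alternatives. Of 11 tested macrophage markers, 2 rose and 9 did not pass (median 0.14). Csf1r, the receptor of macrophage colony-stimulating factor, rose from 475 ± 20.8 to 598 ± 31.5 (0.30 ± 0.08, limma adjusted p = 0.025), and Lyz2, lysozyme, rose from 457 ± 65.9 to 651 ± 9.95 (0.48 ± 0.10, limma adjusted p = 0.012). The summed signal of the 17 macrophage markers on the array was 5788 to 6391 in Rb null livers and 5402 to 5769 in wild type livers. The other 6 were below the filter, and they did not share a direction. Marco, a scavenger receptor, read 88.0 ± 20.0 against 165 ± 10.7, lower in all Rb null livers, and Maf, a transcription factor, read 79.9 ± 15.5 against 42.8 ± 11.3, higher in all of them. Adgre1, the macrophage antigen F4/80, read 163 ± 65.5 against 124 ± 73.4 and overlapped, as did Aif1, Fcgr3 and Msr1.

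Granulocyte and mast cell markers were higher in 8 of 11 tested genes (median 0.42) and lower in none. Their summed signal over 14 genes was 14184 to 14201 in Rb null livers and 10439 to 10789 in wild type livers. Of these, Ms4a2, Cpa3 and Mcpt8 were below the filter, and the genotypes overlapped on each. Ms4a2 (9.73 ± 3.83 against 22.2 ± 15.7) and Cpa3 (78.7 ± 25.0 against 109 ± 31.8) had lower means in Rb null livers. Mcpt8 had a higher mean there (61.4 ± 15.2 against 51.6 ± 2.28). Ltf, lactoferrin (0.77 ± 0.12), and Kit, the stem cell factor receptor of mast cells and progenitors (0.76 ± 0.11), were the members with the largest rises, followed by Prg2 (0.58 ± 0.09) and S100a8 (0.57 ± 0.05). Erythroid markers were lower in 9 of 12 tested genes (median -0.49) and higher in none, and their summed signal was 50928 to 55857 in Rb null livers and 70013 to 75282 in wild type livers. Bpgm, the red cell enzyme that makes bisphosphoglycerate (-1.46 ± 0.07), Xpo7 (-1.27 ± 0.06), Ank1, the membrane skeleton protein ankyrin (-0.62 ± 0.08), and Klf1, a transcription factor of globin genes (-0.60 ± 0.06), fell most in that list.

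None of 4 tested genes of gastric and skin epithelium passed (median 0.03), with Krt18 at 0.12 ± 0.08 and Krt8 at -0.04 ± 0.07, and Muc5ac, Tff2, Krt5, Krt14 and Epcam were below the filter. Summed signals of this list were 2256 to 2457 in Rb null livers and 2211 to 2385 in wild type livers. Mesenchyme markers were higher in 7 of 10 tested genes, endothelial markers in 3 of 9 and megakaryocyte markers in 3 of 4, with none lower in these lists. The largest rises among mesenchyme markers were those of Col3a1 (0.76 ± 0.07), Fbln1 (0.63 ± 0.07), Col5a1 (0.62 ± 0.08) and Postn (0.48 ± 0.07), all of them matrix proteins. The endothelial genes were Kdr (0.66 ± 0.08), Emcn (0.59 ± 0.13, with a wild type mean of 136 below the filter) and Cdh5 (0.31 ± 0.08), and the megakaryocyte genes Gp5 (1.07 ± 0.12), Gp1bb (1.02 ± 0.11) and Vwf (0.91 ± 0.07). Of 12 hepatoblast markers, Hnf4a (0.49 ± 0.11) and Ambp (0.18 ± 0.05) rose, while Apoa1 (-0.31 ± 0.07) and Alb (-0.20 ± 0.05) fell. None of 3 tested dendritic and lymphoid markers passed, with Flt3 (0.28 ± 0.09, limma adjusted p = 0.056) and Rag1 (-0.12 ± 0.12, limma adjusted p = 0.51) nearest to it.

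**Figure D4:**
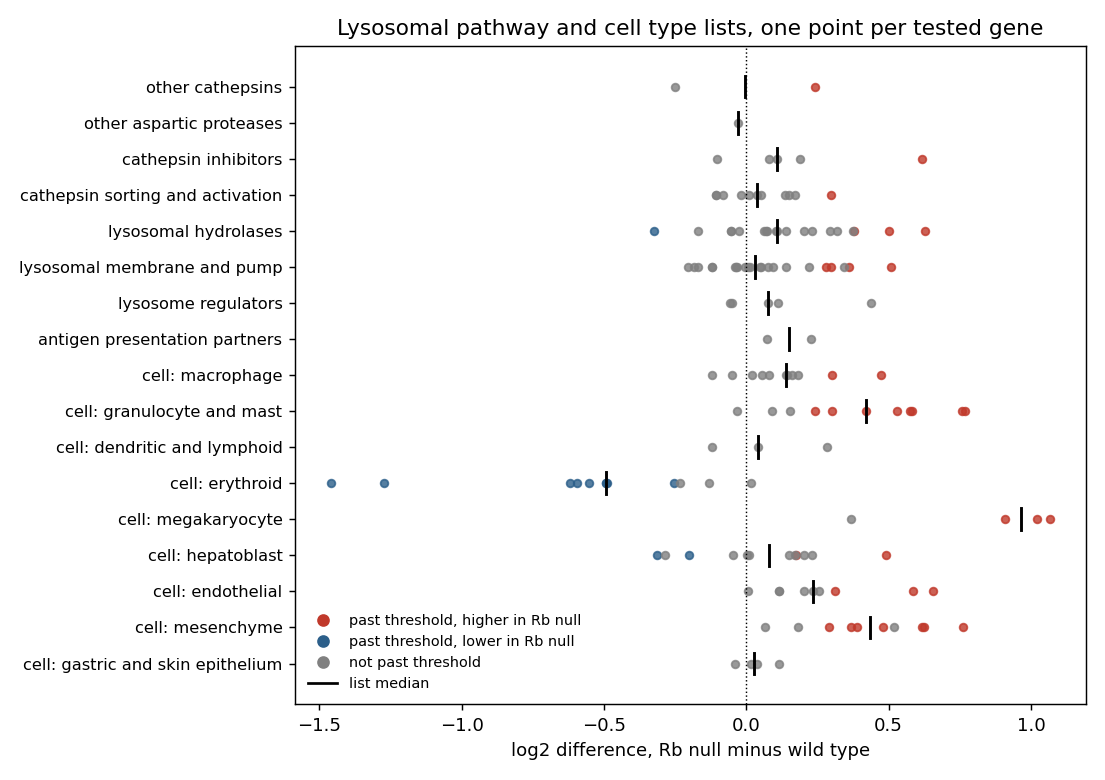
Log2 difference (Rb null minus wild type) of each tested gene in the 8 lists of the cathepsin pathway and in 9 cell type lists, with a bar at each list's median. Most genes of the pathway lists lie near 0 and did not pass the threshold, while the erythroid list lies to the left and the granulocyte, mesenchyme and megakaryocyte lists lie to the right.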

How the data were processed

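The deposited intensity values are MAS5 signals on a linear scale, computed by the authors per the submitters' processing notes, with no version or target given in the sources used here. The 2% trimmed means of the arrays were equal, so the values had been scaled. Symbols came from the platform annotation: 10833 probe sets had 1 symbol, 396 several and 1193 none, and 66 controls were left out. Values were raised by 50.02 and taken to log2, and 6793 probe sets with a mean above 150.1 were fitted with limma 3.58.1 in R 4.3.3 (lmFit, eBayes with intensity trend, two-sided, Benjamini-Hochberg over all tested probe sets). Genes in lists were represented by their brightest probe set. Precision is limited by the number of arrays. The fit was tested on simulated data.

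The members, the 17 gene lists and the alternatives were chosen with earlier results of these data known. The text names every member probe set, up to 4 called genes per list with the largest change (or the 2 with the smallest p where fewer than 2 passed), the 5 genes most like each Ctse probe set, and Rb1. Lamp1, Tfeb, Ctsg and the neighbours of Ctse were named after their values were seen. The same holds for the macrophage, granulocyte and mast cell, megakaryocyte and epithelial markers below the filter. Alternatives were quantile, median and cyclic loess normalization, offsets of 10.005 and 150.1, no filter, a filter of 500.2, eBayes with no trend or with robust settings, a block for replicate number, averaging the probe sets of a gene, and leaving out each embryo.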

Additional observations from a re-analysis of the deposited data

How the results depend on the processing

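Ctse 104696_at (2.55 to 2.83), 93861_f_at (-1.05 to -0.82) and Ctsl (0.24 to 0.39) kept direction and call in all alternatives run. After quantile normalization 93860_i_at passed (-0.38), whereas Ctsb (-0.12), Ctss (0.28) and Ctsh (0.22) did not, leaving 2 cathepsin genes higher and 0 lower. The same held for cyclic loess (-0.37, -0.11, 0.28 and 0.23, with 2 and 0). After median scaling 93860_i_at passed (-0.41), Ctss (0.21) and Ctsh (0.22) did not, leaving 2 higher, and the pathway lists had 5 genes higher and 8 lower. With no filter, Ctsb (-0.26), Ctss (0.34) and Ctsh (0.33) did not pass, leaving 2 and 0. Without the intensity trend Ctsb (-0.26) did not pass, leaving 0 lower, and with probe sets averaged per gene 0 were lower. The causes of these losses were not tested.

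Same-numbered embryos correlated in their deviations from the genotype means with r = -0.06, 0.05 and 0.27. Of the 6 embryos, 2 correlated best with their own number. With 3 embryos per genotype and litters not given, this cannot decide whether the numbers pair the samples, and the main fit treated them as unpaired. With the replicate block, Ctss (0.34) and Ctsh (0.33) did not pass, leaving 2 cathepsin genes higher. Among the pathway genes, Npc1 (adjusted p = 0.060) and Atp6v0a1 (0.070) did not pass with the block, and 2 genes were lower.

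Leaving out 1 embryo at a time gave 882 to 1225 called probe sets in place of 1484, the lowest counts being 882 and 889 without Rb null embryos 1 and 2 and 912 without wild type embryo 3. Cathepsin genes called then numbered 2 to 3 higher and 0 to 1 lower, and pathway genes 6 to 8 higher and 0 to 2 lower. Cell type markers called numbered 19 to 23 higher and 8 to 11 lower. The differences ranged from -0.33 to -0.21 for Ctsb, 0.29 to 0.41 for Ctss, 0.27 to 0.37 for Ctsh, -0.06 to 0.31 for Ctsd, 0.07 to 0.23 for Ctsz, -0.37 to -0.08 for Ctsb 95608_at and -0.14 to 0.14 for Ctsc. Ctsd turned to -0.0555 without wild type embryo 3, and Ctsc to 0.14 without Rb null embryo 1 and 0.02 without wild type embryo 3. Signals of the 5 probe sets below the filter were not shown to be above background.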
